A study of Mus musculus with 16 samples.

Results

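The 30 genes described here encode the enzymes that build cholesterol and fatty acids, together with the proteins that switch these pathways on and off. They were chosen by symbol, and the array had a probe set annotated to a single gene for 17097 genes in all. The list held 7 enzymes of the mevalonate stage (Acat2, Hmgcs1, Mvk, Pmvk, Mvd, Idi1, Fdps), 11 enzymes of the sterol stage (Fdft1, Sqle, Lss, Cyp51, Tm7sf2, Msmo1, Nsdhl, Hsd17b7, Ebp, Sc5d, Dhcr7), 5 control genes (Srebf1, Srebf2, Scap, Insig1, Insig2), 6 genes of fatty acid synthesis (Fasn, Acaca, Acly, Scd1, Scd2, Elovl6) and the sterol carrier gene Stard4. Of the 30 listed genes, 26 had such a probe set. Acat2, Pmvk, Srebf1 and Scd2 were not analysed here. Each gene was represented by its probe set with the highest mean over the 16 arrays. A gene was tested when its log2 value was above 5 on at least 4 arrays, which 25 of the 30 listed genes and 8139 of all genes met. Hmgcs1, the enzyme that makes HMG-CoA, did not: its group means were 4.04 in KI Treg, 4.27 in WT Treg, 4.33 in KI Tconv and 4.64 in WT Tconv.

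Cells make cholesterol by joining acetyl units into mevalonate, turning mevalonate into isoprenoids, condensing these to squalene and closing and trimming the squalene chain into sterol. Fatty acid synthesis starts from the same acetyl units. Both routes are switched on by the SREBP transcription factors, which are held in the endoplasmic reticulum by the Insig proteins and escorted by Scap to the Golgi for cleavage when sterols run low. T cells raise both routes when they are activated and divide, and Treg cells use mevalonate products in their suppressive function.

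The arrays measured CD4 T cells sorted from spleens of NOD/LtJ mice, a strain that develops autoimmune diabetes, at 6 weeks of age and with no other treatment. The 4 groups, of 4 arrays each, were regulatory T cells of knock-in mice with the allele Foxp3tm2Ayr (KI Treg), regulatory T cells of mice with the transgene Tg(Foxp3-EGFP/cre)1aJbs (WT Treg), conventional T cells of the knock-in mice (KI Tconv) and conventional T cells of the transgenic mice (WT Tconv). Foxp3 is the transcription factor that defines Treg cells. The knock-in changes the Foxp3 locus itself, whereas the transgene has Foxp3 regulatory sequence drive an EGFP-Cre fusion protein, so both genotypes carry a Foxp3 reporter and neither is unmodified. Whether a group's arrays stand for separate mice, pools or repeats is not given in the labels. The p-values therefore measure only the spread between these samples, whose small number limits precision. The sort gate in the labels excludes GFP for every sample, those labelled Treg included, so the gate of the Treg samples is unclear. Foxp3 nevertheless lay between 9.39 and 10.05 in KI Treg and between 9.72 and 10.16 in WT Treg, against 3.57 to 3.78 in KI Tconv and 4.24 to 4.96 in WT Tconv. The 5 CD4 T cell genes measured (Cd3e, Cd3d, Cd3g, Cd4, Cd5) averaged 10.15 to 10.47 on every array. The titles number the arrays: 13 to 23 were all KI and 4 to 9 all WT, and the numbers 24 to 27 held 1 array of each group.

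Promoter windows of 300 bases, from 250 bases before to 50 after the gene start, were available from RefSeq (build GRCm38.p6) for 24 of the 30 genes, in 32 windows. Of the 32 windows, 75.0% held the GC box GGGCGG of the factor Sp1, against 35.7% of all 32851 windows, and 65.6% held CCAAT, the NF-Y motif, against 37.4%. The E-box CACGTG was found in 18.8% of the members' windows and 7.15% of all windows. Motifs were searched on both strands, and windows of 1 gene overlap, so these shares are descriptions without a test. The 9 letters TCACCCCAC, from the classic sterol response element, lay in 1 member window, that of Hmgcs1, and in 0.551% of all windows. The looser form TCACNCCAC, which includes every TCACCCCAC, also lay in that window alone among the members and in 1.24% of all windows. The 250 bases before the start are printed for Hmgcs1, because it held the sterol element, and for Mvd, Ebp and Nsdhl, which passed in the comparisons below and were picked after their values were seen. Capitals mark TCACCCCAC and the NF-Y motif, which reads as CCAAT or, when it lies on the opposite strand, as ATTGG. Hmgcs1 lies on the plus strand (chr13:119690101-119690350), Mvd on the minus strand (chr8:122443423-122443672), Ebp on the minus strand (chrX:8193513-8193762) and Nsdhl on the plus strand (chrX:72918271-72918520), each printed 5′ to 3′.
Hmgcs1: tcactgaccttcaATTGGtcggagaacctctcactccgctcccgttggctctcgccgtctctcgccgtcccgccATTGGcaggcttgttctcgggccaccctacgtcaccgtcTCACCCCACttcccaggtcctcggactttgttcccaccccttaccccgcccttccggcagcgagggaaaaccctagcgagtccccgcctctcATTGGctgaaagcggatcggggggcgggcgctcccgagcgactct
Mvd: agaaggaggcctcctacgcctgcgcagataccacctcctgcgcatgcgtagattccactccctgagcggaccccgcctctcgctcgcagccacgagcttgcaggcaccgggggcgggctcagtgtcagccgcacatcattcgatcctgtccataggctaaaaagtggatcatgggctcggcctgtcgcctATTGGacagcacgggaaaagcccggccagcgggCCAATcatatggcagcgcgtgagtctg
Ebp: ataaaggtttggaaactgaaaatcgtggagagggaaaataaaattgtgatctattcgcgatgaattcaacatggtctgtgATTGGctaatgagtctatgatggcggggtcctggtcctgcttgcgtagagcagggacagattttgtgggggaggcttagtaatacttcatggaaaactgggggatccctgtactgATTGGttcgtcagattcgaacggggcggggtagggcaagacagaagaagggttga
Nsdhl: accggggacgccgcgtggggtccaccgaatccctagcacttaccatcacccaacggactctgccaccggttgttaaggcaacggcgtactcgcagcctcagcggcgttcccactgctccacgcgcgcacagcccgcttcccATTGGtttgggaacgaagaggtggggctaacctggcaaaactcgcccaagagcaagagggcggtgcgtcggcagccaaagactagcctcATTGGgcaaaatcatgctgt
CCAAT was found 3 times in the Hmgcs1 sequence and 2 times in each of the others.

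The first comparison set KI Treg against WT Treg. Both genotypes are modified and, outside the numbers 24 to 27, the array numbers separate them, so a difference cannot be assigned to the knock-in allele. Of the 25 tested genes, 1 rose in KI Treg relative to WT Treg and 0 fell (limma, Benjamini-Hochberg adjusted p under 0.05 over the 8139 genes). Over all tested genes, 1.99% rose and 0.848% fell. The gene that rose was Mvd, mevalonate diphosphate decarboxylase, which makes the isopentenyl unit of all isoprenoids and sterols. Mvd had log2 values of 6.20, 6.47, 5.75 and 5.72 in KI Treg, against 5.13, 5.68, 5.29 and 5.06 in WT Treg. Every KI Treg array was above every WT Treg array, although the lowest KI and the highest WT array were close. The difference was 0.75 (SE 0.18, 95% interval 0.36 to 1.13, 1.68-fold; limma adjusted p = 0.033). It was 0.65 between the Treg arrays numbered 26 (KI) and 24 (WT). With 3 blocks of array numbers as a term it was 0.91 and did not pass (limma adjusted p = 0.275), nor did it pass when only the compared groups were fitted (0.0789). The call was lost when KI Treg replicate 1 (adjusted p = 0.117) or 2 (0.125), or WT Treg replicate 1 (0.113), 3 (0.0863) or 4 (0.104), was left out. A second Mvd probe set differed by 0.27, and the mean of the probe sets by 0.51 (limma adjusted p = 0.0546).

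Most of the other cholesterol enzymes had small positive differences that did not pass. Of the 15 tested enzymes of the mevalonate and sterol stages, 13 had a higher mean in KI Treg (86.7%, against 60.3% of all tested genes), with a median difference of 0.21 against 0.04 for all genes. Fdps, which makes farnesyl diphosphate, the branch point to sterols and to prenylated proteins, had 7.80, 7.93, 7.59 and 7.68 in KI Treg, against 7.45, 7.38, 7.34 and 7.43 in WT Treg. The Fdps arrays did not overlap, and the difference was 0.35 (SE 0.099; limma adjusted p = 0.0678). Fdps passed without the 4 arrays numbered 24 to 27 (0.38; limma adjusted p = 0.038), without KI Treg replicate 4 (0.0457) and without KI Tconv replicate 4 (0.0302). Nsdhl, a sterol demethylation enzyme, also had no overlap, with a difference of 0.21 (limma adjusted p = 0.153). Fdft1, which makes squalene, differed by 0.32 (0.226), Cyp51, the lanosterol demethylase, by 0.32 (0.321), Dhcr7, the last reductase of the pathway, by 0.27 (0.194) and Sqle, the squalene oxidase, by 0.22 (0.441), with limma adjusted p in brackets. Msmo1 and Sc5d, which also act on the ring and its methyl groups, were the 2 tested enzymes with lower means in KI Treg, at -0.01 and -0.10. The remaining enzymes, Mvk, Idi1, Lss, Tm7sf2, Hsd17b7 and Ebp, differed by 0.06 to 0.21.

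The mean of the 15 enzymes on each array, with each gene first centred on its own mean, was 0.12, 0.17, -0.02 and -0.00 in KI Treg, against -0.17, -0.02, -0.22 and -0.13 in WT Treg. The highest WT Treg array lay just below the lowest KI Treg array. The other 3 WT Treg arrays were further down. In conventional T cells the same mean was 0.11, 0.00, -0.14 and 0.21 in KI and 0.08, -0.00, -0.03 and 0.05 in WT, so the WT values lay inside the range of the KI values. Markers of dividing cells moved in the same comparison. Of 12 listed markers 9 were tested, and all 9 had higher means in KI Treg (median difference 0.86), against 60.3% of all tested genes. Of the 9, 2 passed as higher, against 1.99% of all tested genes. They were Ccnb2 and Cdc20, both needed in mitosis (limma adjusted p = 0.00273 and 0.00853). The mean of all 12 ran from 6.12 to 7.00 in KI Treg, against 5.25 to 6.36 in WT Treg, and their summed linear level from 1259 to 2199 in KI Treg, against 654 to 1407 in WT Treg. The 5 tested neutrophil markers also had higher means in KI Treg (median difference 0.84), and 0 passed. The 3 tested B cell markers had lower means in KI Treg (median difference -0.42), and 0 passed. The part of these markers in the values of the cholesterol genes was not tested. In such bulk samples, fewer cells of a type and less RNA per cell cannot be told apart.

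**Figure D1:**
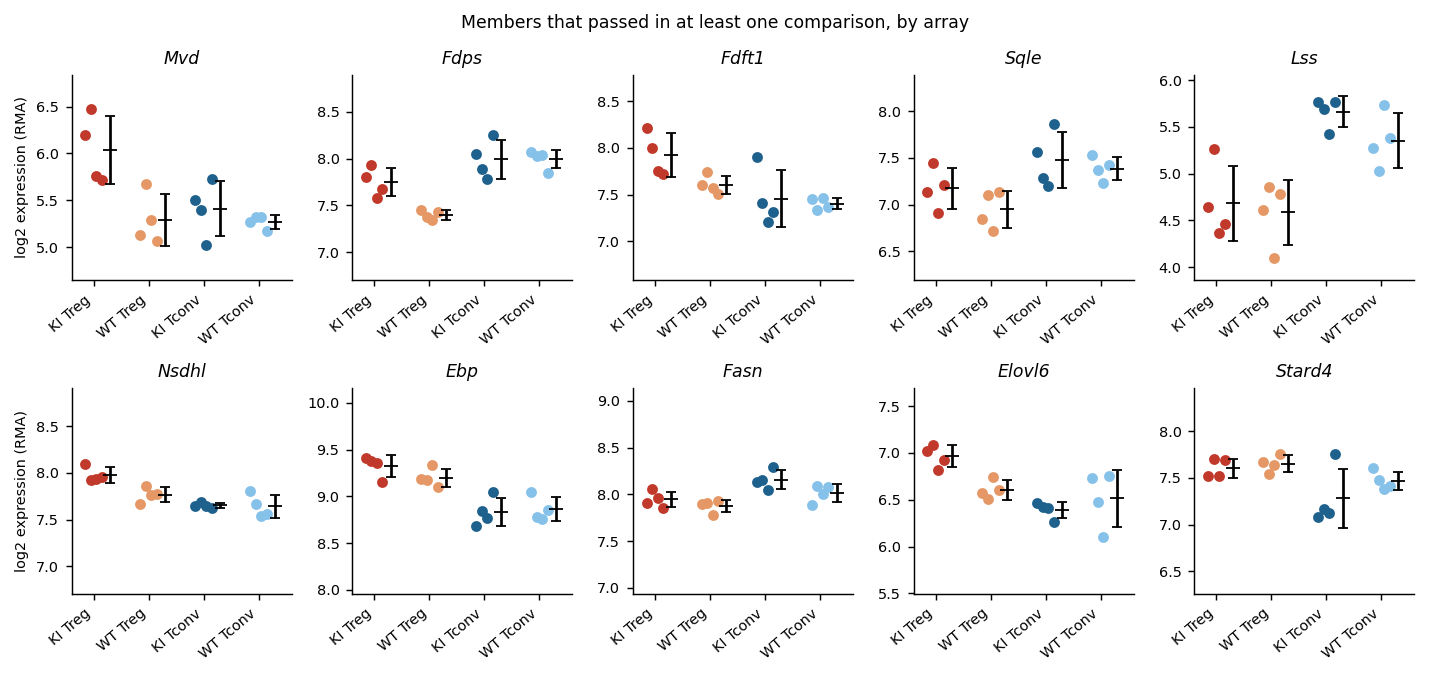
Log2 expression (y axis, spans of equal height) of the 10 genes that passed in at least 1 comparison, with 1 point per array and the mean and SD of the 4 arrays of each group beside them. Mvd is at 5.72 to 6.47 in KI Treg, above the other groups' means, and Lss is lower in Treg than in Tconv cells of both genotypes.

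The genes of fatty acid synthesis and of SREBP control did not pass between KI and WT Treg. Elovl6, which elongates palmitate, had 7.02, 7.09, 6.82 and 6.92 in KI Treg, against 6.57, 6.50, 6.75 and 6.60 in WT Treg. Its arrays did not overlap, and the difference was 0.36 (SE 0.12; limma adjusted p = 0.133). The mean of the 3 Elovl6 probe sets did pass, with a difference of 0.28 (limma adjusted p = 0.0417). Acly, which splits citrate into the acetyl-CoA that feeds both pathways, had 10.61, 10.62, 10.45 and 10.45 in KI Treg, against 10.28, 10.42, 10.38 and 10.30 in WT Treg, again without overlap, with a difference of 0.19 (limma adjusted p = 0.0852, and 0.0386 without KI Treg replicate 4). The committed enzymes Acaca (-0.07) and Fasn (0.07) lay near 0. Among the control genes, the difference was 0.27 for Insig1, itself an SREBP target, 0.20 for Srebf2, which encodes the SREBP that drives the cholesterol genes, 0.10 for Scap and -0.10 for Insig2, with limma adjusted p of 0.397, 0.695, 0.586 and 0.574. Stard4, the sterol carrier, differed by -0.05. Over all 25 genes, 19 had positive differences (76.0%, against 60.3% of all tested genes) with a median of 0.14. Arrays without overlap were found for 5 of the 25, against 8.12% of all tested genes. For 18 of the 24 genes that did not pass, the 95% interval lay within 1.5-fold in either direction. Those of Fdft1, Cyp51, Srebf2, Insig1, Scd1 and Elovl6 reached beyond it.

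Conventional T cells gave no such calls. Between KI and WT Tconv, 0 of the 25 genes passed in limma. An unadjusted p under 0.05 was found for 1, Scap (4.0%, against 480 or 5.90% of all genes). Over all genes 0.0% rose and 0.135% fell. The median difference was 0.01, equal to that over all genes, and the intervals of 22 of the 25 genes lay within 1.5-fold. Those of Lss, Srebf2 and Scd1 did not. Mvd had 5.50, 5.39, 5.02 and 5.73 in KI Tconv, against 5.27, 5.32, 5.32 and 5.17 in WT Tconv, and the KI arrays spanned the WT arrays. Whether the genotype difference itself differed between Treg and Tconv was tested as an interaction. It passed for 0 of the 25 genes in limma, and over all genes 0.663% passed as higher and 0.123% as lower. An unadjusted p under 0.05 was found for 4 members, Mvd, Fdps, Acly and Elovl6 (16.0%, against 673 or 8.27% of all genes). The interaction was 0.60 for Mvd (limma adjusted p = 0.507), so the genotype difference of Mvd was not shown to be unequal between Treg and Tconv cells.

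**Figure D2:**
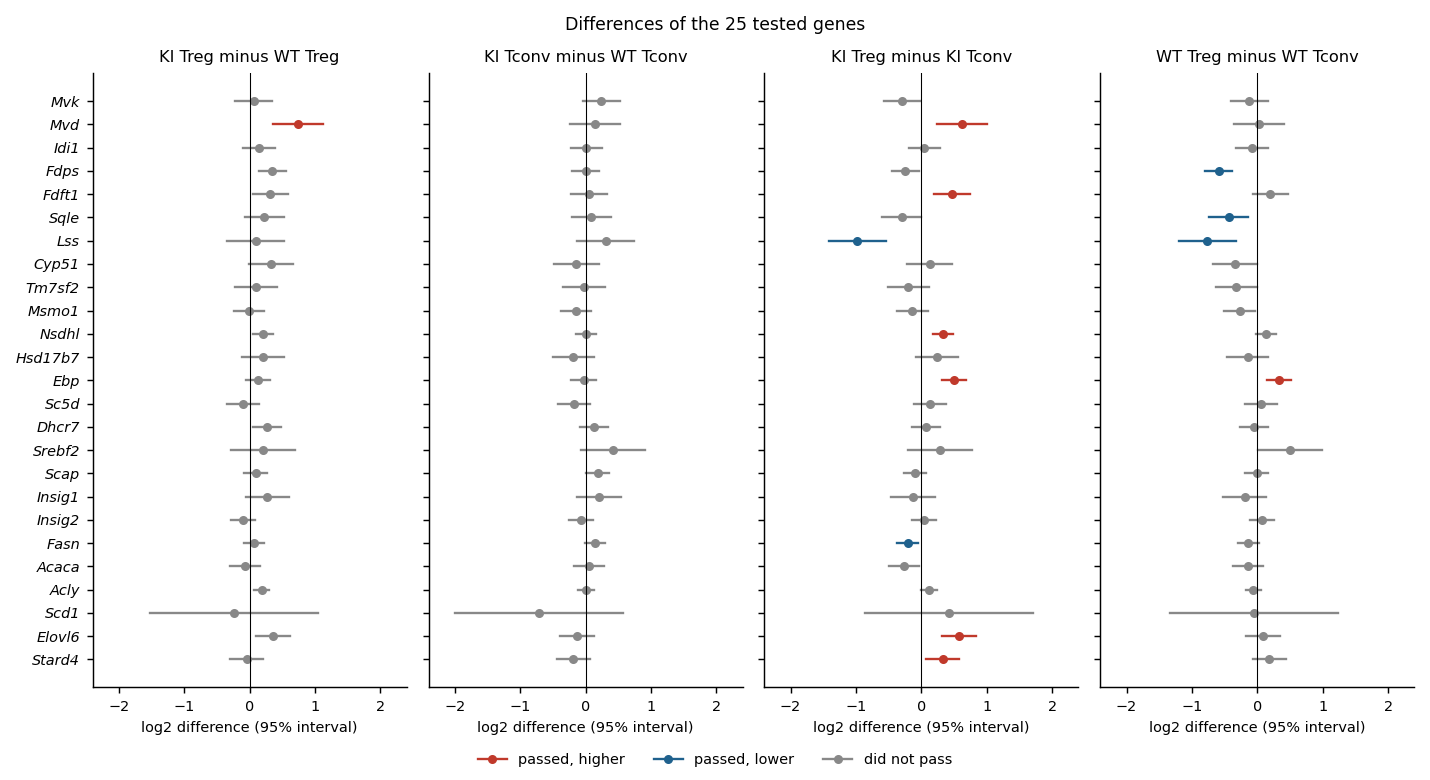
Log2 differences (x axis) with 95% intervals from limma for the 25 tested genes in 4 comparisons, coloured by whether the gene passed at an adjusted p under 0.05. Mvd alone is coloured between KI and WT Treg, and 0 genes are coloured between KI and WT Tconv.

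The comparison of Treg with Tconv cells within each genotype gave more calls and opposite directions for different enzymes. In KI mice 6 of the 25 genes were higher in Treg (Mvd, Fdft1, Nsdhl, Ebp, Elovl6, Stard4) and 2 lower (Lss, Fasn), against 21.2% higher and 19.9% lower over all genes. In WT mice 1 was higher in Treg (Ebp) and 3 lower (Fdps, Sqle, Lss), against 16.7% higher and 17.9% lower over all genes. Against these shares, the count of higher genes in KI mice was near the background and the other counts were below it. The median difference was 0.07 in KI and -0.06 in WT mice, against -0.02 and -0.03 over all genes. The 2 comparisons share no arrays. Some markers of other cell types passed as higher in Treg than in Tconv in both genotypes. Cd8a was higher by 1.82 in KI and 2.35 in WT mice and Cd79b (B cells) by 1.38 and 1.15. Nkg7 was higher by 0.96 and 0.89 and Eomes by 0.83 and 0.92 (NK cells). Cst3 (dendritic cells) was higher by 0.65 and 0.50 and Xbp1 (plasma cells) by 0.69 and 0.67. Cst3 was the only tested gene of the 6 listed dendritic cell markers. The others with a probe set, Itgax, Flt3, Zbtb46 and Xcr1, lay under 5 on every array. Their Treg and Tconv arrays overlapped in both genotypes. The other tested CD8, B and plasma cell markers passed in neither genotype. They were Cd8b1 (-0.26 in KI, 0.08 in WT), Ms4a1 (0.27 and -0.30), Cd22 (0.08 and 0.15) and Jchain (0.39 and -0.43). Of the untested NK cell markers, Klrk1 ran from 2.92 to 3.39 in KI Treg, against 3.53 to 4.12 in KI Tconv. In WT mice Klrk1 ran from 3.20 to 3.51 in Treg, against 3.34 to 3.70 in Tconv. Ncr1 and Klrb1c overlapped between Treg and Tconv in both genotypes. The summed level of the 2 CD8 T cell markers ran from 116 to 154 in KI Treg, against 94 to 122 in KI Tconv, and from 139 to 176 in WT Treg, against 73 to 93 in WT Tconv. That of the 5 NK cell markers ran from 261 to 409 in KI Treg, against 139 to 248 in KI Tconv. In WT mice it ran from 294 to 481 in Treg, against 172 to 248 in Tconv. Nkg7 and Eomes made up most of this sum, since Ncr1, Klrb1c and Klrk1 lay under 5 on every array. The part of other cell types in the members' differences was not tested. The intervals of the genes that did not pass lay within 1.5-fold for 14 of 17 in KI mice and 17 of 21 in WT mice.

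Ebp, the sterol isomerase that moves the ring double bond, was higher in Treg cells of both genotypes. Its values were 9.41, 9.38, 9.35 and 9.15 in KI Treg, against 8.68, 8.84, 8.76 and 9.04 in KI Tconv. They were 9.19, 9.18, 9.33 and 9.11 in WT Treg, against 9.05, 8.78, 8.76 and 8.86 in WT Tconv. The groups did not overlap in either genotype, and the differences were 0.49 in KI (SE 0.088; limma adjusted p = 0.000188) and 0.34 in WT mice (SE 0.088; limma adjusted p = 0.00568). Lss, the enzyme that closes squalene epoxide to lanosterol, was lower in Treg cells of both genotypes. It had 4.64, 5.26, 4.36 and 4.46 in KI Treg, against 5.76, 5.69, 5.43 and 5.77 in KI Tconv, and 4.61, 4.86, 4.09 and 4.78 in WT Treg, against 5.28, 5.02, 5.73 and 5.38 in WT Tconv. The differences were -0.98 (SE 0.21; limma adjusted p = 0.000918) and -0.77 (SE 0.21; limma adjusted p = 0.00732). The Treg values lay mostly under 5, so Lss entered the test mainly through its Tconv values, and the filter favoured a lower Treg mean.

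Fdps and Sqle passed as lower in Treg cells of WT mice. Fdps had 7.45, 7.38, 7.34 and 7.43 in WT Treg, against 8.07, 8.02, 8.04 and 7.85 in WT Tconv, a difference of -0.59 without overlap (SE 0.099; limma adjusted p = 0.000112). In KI mice it had 7.80, 7.93, 7.59 and 7.68 in Treg, against 8.05, 7.89, 7.78 and 8.26 in Tconv, which overlapped, with a difference of -0.25 (limma adjusted p = 0.0548). The Fdps interaction, 0.35, had a limma adjusted p of 0.466, so these differences were not shown to be unequal. Sqle had 6.85, 7.10, 6.72 and 7.13 in WT Treg, against 7.53, 7.37, 7.23 and 7.42 in WT Tconv, a difference of -0.43 (SE 0.14; limma adjusted p = 0.0236) without overlap. It was not called when WT Treg replicate 1 (adjusted p = 0.0635) or 3 (0.0832) or WT Tconv replicate 1 (0.0677) was left out. In KI mice Sqle differed by -0.30 (limma adjusted p = 0.101).

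Elovl6, Nsdhl, Fdft1 and Mvd passed as higher in Treg cells of KI mice, and their values in WT mice did not pass. The WT differences were 0.20 for Fdft1, without overlap, 0.13 for Nsdhl and 0.02 for Mvd. The interaction did not pass for Elovl6, Nsdhl, Fdft1 or Mvd (limma adjusted p = 0.356, 0.671, 0.822 and 0.507). Their Treg against Tconv differences were therefore not shown to be unequal between the genotypes. Elovl6 had 7.02, 7.09, 6.82 and 6.92 in KI Treg, against 6.47, 6.42, 6.42 and 6.26 in KI Tconv, a difference of 0.57 without overlap (SE 0.12; limma adjusted p = 0.00104). Its other probe sets differed by 0.50 and 0.28, and the WT difference was 0.09 (limma adjusted p = 0.624). Nsdhl had 8.10, 7.92, 7.94 and 7.96 in KI Treg, against 7.65, 7.69, 7.65 and 7.62 in KI Tconv, a difference of 0.33 without overlap (SE 0.074; limma adjusted p = 0.00172). Fdft1 had 8.22, 8.00, 7.75 and 7.72 in KI Treg, against 7.90, 7.41, 7.21 and 7.31 in KI Tconv. The highest Fdft1 value of KI Tconv lay inside the KI Treg range, and the difference was 0.47 (SE 0.13; limma adjusted p = 0.00807). Mvd differed by 0.62 (SE 0.18; limma adjusted p = 0.0103), with 1 KI Tconv array at 5.73 inside the KI Treg range. With the mean of the Mvd probe sets it was 0.34 and did not pass (limma adjusted p = 0.0517). Between the KI arrays numbered 26 and 27 the Mvd difference was -0.014, and the second Mvd probe set differed by 0.06. In the comparison of KI Treg with KI Tconv 9 of 9 tested dividing-cell markers passed as higher, against 21.2% of all tested genes. Their median difference was 1.78. The mean of the 12 per array was 6.12 to 7.00 in KI Treg, against 4.85 to 5.48 in KI Tconv. The 5 tested neutrophil markers had higher means in KI Treg too (median difference 1.02), and 0 passed. Of the monocyte markers Cd68 was higher by 1.24 (limma adjusted p = 0.0332), while Lyz2 (1.28) and Fcgr3 (-0.14) did not pass. The part of these markers in the members' differences was not tested. In WT mice 2 of the 9 dividing-cell markers passed as higher in Treg, against 16.7% of all tested genes. Higher means in WT Treg were found for 8 of the 9, against 45.8% of all tested genes. The median difference of the 9 was 0.54.

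Stard4 and Fasn passed in KI mice in the fit of all 16 arrays and lost the call without single arrays. Stard4 had 7.52, 7.70, 7.52 and 7.69 in KI Treg, against 7.08, 7.16, 7.13 and 7.75 in KI Tconv, a difference of 0.32 (limma adjusted p = 0.0378) in which the last KI Tconv array lay above all KI Treg arrays. Its other probe sets differed by 0.12 and 0.19, and between the KI arrays numbered 26 and 27 the difference was -0.065. The call was lost without KI Treg replicate 2 (limma adjusted p = 0.0878) or 4 (0.0802) and without KI Tconv replicate 1 (0.117), 2 (0.102) or 3 (0.112). Fasn, the fatty acid synthase, had 7.91, 8.05, 7.96 and 7.86 in KI Treg, against 8.14, 8.16, 8.04 and 8.29 in KI Tconv, a difference of -0.21 (limma adjusted p = 0.029) with overlap of 1 array on each side. It was lost without KI Treg replicate 1 (limma adjusted p = 0.0693) or 4 (0.0725) and without KI Tconv replicate 2 (0.0569) or 4 (0.0897). Acaca, which supplies malonyl-CoA to Fasn, differed by -0.27 (limma adjusted p = 0.0582).

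**Figure D3:**
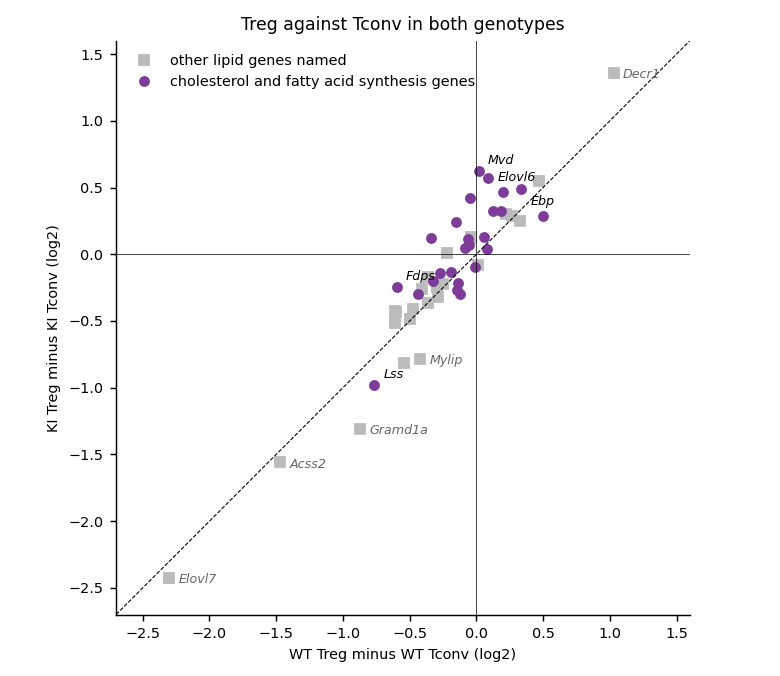
Log2 difference of Treg minus Tconv in WT mice (x axis) and in KI mice (y axis) for the 25 tested genes (circles) and for named genes of other lipid pathways (squares), with the dashed line of equal differences. The members lie between -0.98 and 0.62, and Acss2 and Elovl7 lie lower in both genotypes.

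None of the 4 tested SREBP control genes passed between Treg and Tconv in limma, with Srebf2 in WT mice at an unadjusted p under 0.05. Srebf2 had 7.62, 8.16, 7.31 and 7.68 in KI Treg, against 7.68, 7.03, 7.05 and 7.88 in KI Tconv, which overlapped. It had 7.41, 7.57, 7.35 and 7.62 in WT Treg, against 6.59, 6.63, 7.05 and 7.70 in WT Tconv. The WT difference of 0.50 did not pass (limma adjusted p = 0.109). The WT Tconv arrays were spread over more than 1 log2 unit, and a second Srebf2 probe set differed by 0.13. Without WT Tconv replicate 4, the highest of these, the difference was 0.73 (limma adjusted p = 0.0119). Insig1 (-0.13 in KI, -0.19 in WT), Insig2 (0.04 and 0.08) and Scap (-0.10 and -0.01) did not pass in either genotype.

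Scd1, the stearoyl-CoA desaturase that makes oleate, varied most of the 25 genes between arrays of a group. It ran from 4.70 to 6.48 in KI Treg, from 3.78 to 7.01 in WT Treg, from 4.28 to 5.81 in KI Tconv and from 4.83 to 6.91 in WT Tconv, and passed in 0 comparisons. Its 95% interval between KI and WT Treg ran from -1.52 to 1.04, wide enough to hold changes of more than 1.5-fold in either direction. Scd1 followed the B cell markers Cd79b, Ms4a1 and Cd22, and also the plasma cell, monocyte and neutrophil markers. The plasma cell mean held 2 genes, Jchain (2.31 to 9.13 over the 16 arrays) and Xbp1 (9.75 to 10.81). It therefore varied mainly through Jchain. Across the 16 arrays Pearson's r with the mean log2 value of the B cell markers was 0.928 and Spearman's rho 0.918. Both had a permutation p of 1e-05, the smallest that 100000 resamples can give, and 3.5e-05 after adjustment over 7 marker lists. Without the 2 arrays farthest from the median r was 0.909. Within the arrays numbered 4 to 9, all WT, r was 0.951 (exact permutation p = 0.00556, n = 6), and within those numbered 13 to 23, all KI, it was 0.968 (exact permutation p = 0.00139, n = 6). In the same sets of arrays r was 0.962 and 0.922 with the plasma cell markers (exact permutation p = 0.00278 and 0.00972). It was 0.945 and 0.840 with the monocyte markers (0.00417 and 0.0347) and 0.801 and 0.955 with the neutrophil markers (0.0542 and 0.00139). Spearman's rho with the monocyte markers in the arrays numbered 13 to 23 was 0.771 (exact permutation p = 0.103). The relation was thus not particular to B cell markers. The numbers 24 to 27 held too few arrays for a value. Over the 16 arrays r was 0.912 with the plasma cell markers, 0.803 with the monocyte and 0.800 with the neutrophil markers (permutation p adjusted 3.5e-05, 0.000607 and 0.000735), 0.298 with the NK cell, 0.226 with the dividing-cell and 0.148 with the CD8 T cell markers (0.363, 0.464 and 0.578). The relation was looked for after the Scd1 values were seen, and the part of other cell types in the Scd1 values was not tested. Of the 7 B cell genes listed, 6 had a probe set and 3 were tested. The summed linear level of the 6 ran from 182 to 490 in KI Treg, 202 to 700 in WT Treg, 120 to 372 in KI Tconv and 163 to 702 in WT Tconv.

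**Figure D4:**
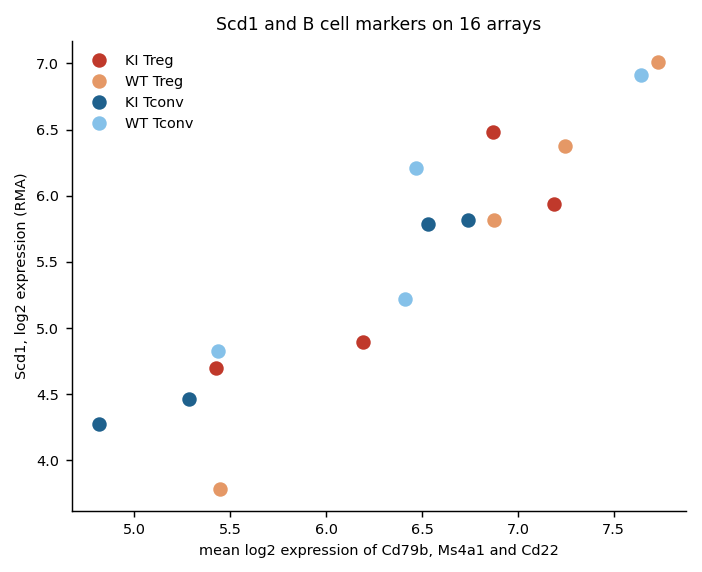
Log2 expression of Scd1 (y axis) against the mean log2 expression of Cd79b, Ms4a1 and Cd22 (x axis) on the 16 arrays, coloured by group. Arrays of all 4 groups lie along 1 rising line (r = 0.928).

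Genes of 4 neighbouring lists were counted in the same way. Their counts between Treg and Tconv stand against 21.2% higher and 19.9% lower in KI and 16.7% and 17.9% in WT mice over all genes, and nothing particular to a list is read from them. Of 10 tested genes of sterol uptake, storage and efflux, 6 were lower and 0 higher in KI Treg than in KI Tconv, and 4 were lower and 0 higher in WT Treg than in WT Tconv. Mylip, the ubiquitin ligase that marks the LDL receptor for degradation, was the 1 gene of these lists that passed between KI and WT Treg. It had 9.19, 9.11, 9.38 and 9.37 in KI Treg, against 9.81, 9.70, 9.71 and 9.61 in WT Treg, without overlap. The difference was -0.45 (SE 0.081; limma adjusted p = 0.00543). Mylip was also lower in Treg than in Tconv, by -0.78 in KI and -0.42 in WT mice (limma adjusted p = 3.46e-07 and 0.000528). Gramd1a, which carries cholesterol from the plasma membrane inwards, had differences of -1.31 in KI and -0.87 in WT mice (limma adjusted p = 1.53e-09 and 4.97e-07). Between KI and WT Treg it differed by -0.31 (0.0751). Npc2, which hands cholesterol out of the lysosome, was lower in Treg by -0.51 in KI and -0.61 in WT mice, and Osbpl9, an oxysterol-binding protein, by -0.41 and -0.47, all past the threshold.

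Of 8 tested genes of SREBP processing and sterol sensing, 2 were lower and 0 higher in Treg cells in each genotype. Lbr, a sterol reductase of the nuclear envelope, was lower in both (-0.24 in KI, -0.30 in WT mice). Mbtps2, the second protease that cleaves SREBP, was lower in WT Treg (-0.36; limma adjusted p = 0.00804) and differed by -0.17 in KI mice (0.182). Fbxw7, a ubiquitin ligase subunit that targets active SREBP, differed by 0.24 between KI and WT Treg (limma adjusted p = 0.111). Of 13 tested genes that use isoprenoids, 4 were lower and 0 higher in KI Treg, and 4 lower and 1 higher in WT Treg, than in Tconv. Rabggtb, a subunit of the enzyme that prenylates Rab proteins, was lower by -0.49 in KI and -0.50 in WT mice. Coq2, which acts in ubiquinone synthesis, was lower by -0.32 and -0.29. Fntb, the farnesyltransferase beta subunit, was lower by -0.82 and -0.54, with every Treg array under 5. Fntb thus entered the test through Tconv alone, and the filter favoured a lower Treg mean. Dhdds, of dolichol synthesis, was the gene that was higher in WT Treg (0.32).

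Of 13 tested genes of fatty acid elongation, desaturation and activation, 4 were lower and 1 higher in KI Treg, and 4 lower and 0 higher in WT Treg, than in Tconv. Acss2, which activates acetate to acetyl-CoA and so bypasses Acly, had the lowest p of them. It ran from 6.62 to 6.81 in KI Treg, against 8.09 to 8.33 in KI Tconv, and from 6.70 to 7.01 in WT Treg, against 8.07 to 8.40 in WT Tconv. The differences were -1.56 and -1.47 (limma adjusted p = 1.33e-10 and 4.74e-10), and KI and WT Treg differed by -0.14 (limma adjusted p = 0.474). Elovl7, an elongase of long saturated chains, averaged 3.31 in KI Treg, against 5.73 in KI Tconv, and 3.32 in WT Treg, against 5.62 in WT Tconv, so it too entered the test through Tconv alone. Hsd17b12, the reductase of the elongation cycle, was lower in Treg by -0.26 in KI and -0.41 in WT mice. In limma, 0 genes of these 4 lists passed between KI and WT Tconv. There, 1 of 10 tested genes of sterol uptake and 1 of 13 of isoprenoid use had an unadjusted p under 0.05. The share over all tested genes was 5.90%. In the interaction 0 passed, and 3 of the 10 genes of sterol uptake had an unadjusted p under 0.05. The share over all tested genes was 8.27%, and 0 genes of the other lists were under 0.05.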

How the data were processed

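Gene expression was measured on 16 Affymetrix arrays, 4 in each of 4 groups taken from the labels' genotype and cell type. The deposited values are log2 expression per probe set, made by the authors with RMA in Partek 6.5, per the submitters' processing notes. RMA subtracts background, equalises the arrays' distributions and summarises probes, so total RNA per cell cannot be compared, and differences near background (values under about 5) understate the true fold. Array medians ran from 3.69 to 3.76, and 17581 to 17990 probe sets per array were above 5. RNA was labelled by the Affymetrix 3' IVT Express protocol, per the labels' protocols.

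Of 45141 probe sets, 28898 were annotated to 1 gene, 551 to several and 15588 to none, and 104 were controls. Symbols were updated through Entrez identifiers for 28689 and by symbol for 152, and 57 kept the array's symbol. The 4 group means were estimated from all 16 arrays together (limma 3.58.1, R 4.3.3, moderated variances with a trend, two-sided tests, Benjamini-Hochberg over 8139 genes, threshold 0.05), and the script was tested on simulated data. A summed linear level is the sum of 2-to-the-power-of-log2 values over a list's probe sets. Alternatives were a repeated quantile normalization, no filter or a filter at 6, other probe sets per gene, no trend, the compared groups only, blocks of array numbers, and each array left out.

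The 30 genes and the lists were chosen with earlier results of these data known. Values by array were to be given for genes passing between genotypes or passing between cell types with a difference of at least 0.58, which covers Mvd, Fdps and Lss. Those of the other genes printed by array were chosen after their values were seen. Of each neighbouring list, up to 3 genes with the lowest p in each of the KI against WT Treg and WT Treg against WT Tconv comparisons could be named. Probe sets annotated to several genes were not used.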

Additional observations from a re-analysis of the deposited data

Results flagged for a closer look

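In 104 groups of 4 arrays, 26 genes by 4 groups, 4 had an array far from the other 3 by Dixon's criterion, and chance gives about 1 in 20. Mvk was 5.52 on WT Treg replicate 2, against 4.99 to 5.06 on the other WT Treg arrays. Hsd17b7 was 5.21 on KI Tconv replicate 1, against 5.58 to 5.62 on the other KI Tconv arrays. Sc5d was 7.72 on WT Tconv replicate 3, against 7.81 on each of the other WT Tconv arrays. Stard4 was 7.75 on KI Tconv replicate 4, against 7.08 to 7.16 on the other KI Tconv arrays.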

How the results depend on the processing

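Ebp in both genotypes, Fdps in WT mice and Elovl6, Fdft1 and Nsdhl in KI mice kept their Treg against Tconv calls under every alternative that tested them. Within the arrays numbered 24 to 27, a value with no test, Mvd (-0.014) and Stard4 (-0.065) turned direction between KI Treg and KI Tconv. Between KI and WT Treg, 0 genes passed in place of 1 with the filter at 6, which removed Mvd, with only the compared groups, or with 3 blocks of array numbers, and 2 passed without the arrays numbered 24 to 27. With only the compared groups, 7 passed in place of 4 between WT Treg and WT Tconv. With each array left out in turn, the counts ran from 0 to 3 between KI and WT Treg, from 3 to 5 between WT Treg and WT Tconv, from 6 to 10 between KI Treg and KI Tconv, and stayed at 0 between KI and WT Tconv and in the interaction. Over all genes, the 231 calls between KI and WT Treg became 29 with 3 blocks and 422 without the arrays numbered 24 to 27 (101 to 571 with each array left out), and the 11 between KI and WT Tconv became 4 with only the compared groups, 5 with 3 blocks and 105 without those arrays (7 to 65). The 64 calls of the interaction ran from 37 to 104. The cause of these changes was not tested. In 3 blocks the genotypes meet only in the arrays numbered 24 to 27. No paired analysis was possible because the titles give each array a number of its own, and the replicate numbers 1 to 4 used here only name arrays in accession order. Values under about 5 limit what Hmgcs1 and the Treg values of Lss can show.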

Other observations

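Genes of fatty acid oxidation, which breaks down what the synthesis genes build, passed in both directions between Treg and Tconv cells. Of 14 tested genes of the 18 listed, 6 were higher and 2 lower in KI Treg than in KI Tconv, and 3 were higher and 4 lower in WT Treg than in WT Tconv (limma, adjusted p under 0.05). Over all genes the shares were 21.2% higher and 19.9% lower in KI and 16.7% and 17.9% in WT mice, so the WT counts lie near the background. Decr1, which helps oxidise unsaturated fatty acids, had 8.51, 8.59, 8.29 and 7.98 in KI Treg, against 7.24, 6.91, 6.99 and 6.78 in KI Tconv, a difference of 1.36 (SE 0.13; limma adjusted p = 1.48e-07). It had 8.06, 8.30, 8.01 and 7.94 in WT Treg, against 7.30, 6.92, 7.04 and 6.92 in WT Tconv, a difference of 1.03 (limma adjusted p = 6.52e-06). The Decr1 arrays of Treg and Tconv did not overlap in either genotype. Eci1, an isomerase of the same step, was also higher in Treg cells, by 0.55 in KI and 0.47 in WT mice (limma adjusted p = 0.000108 and 0.000635). Acaa2, the thiolase that ends the cycle, was lower in Treg cells, by -0.43 in KI and -0.60 in WT mice (limma adjusted p = 6.96e-05 and 1.94e-06).

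Between KI and WT Treg, 0 of the 14 genes passed in limma. An unadjusted p under 0.05 was found for 5 (35.7%, against 16.5% of all tested genes). Positive differences were found for 13 (92.9%, against 60.3% of all tested genes), with a median of 0.12 against 0.04 over all genes. Acadvl, the dehydrogenase for very long chains, differed by 0.21 (limma adjusted p = 0.0998). In the interaction 0 passed, with 2 at an unadjusted p under 0.05 (14.3%, against 8.27% of all tested genes). Between KI and WT Tconv 0 passed, with 1 at an unadjusted p under 0.05 (7.14%, against 5.90% of all tested genes).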
